A study of Mus musculus with 15 samples.

Results

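Fibroblasts given an engineered set of heart transcription factors, MΔGΔT, were compared with fibroblasts given the unaltered set, MGT, 1 week after transduction with retrovirus. The compared libraries were all those titled MΔGΔT and all those titled MGT, 5 of each and so 10 of the 15 libraries of the series, and the values compared were the raw counts of all 14091 listed features. Every library came from mouse embryonic fibroblasts (MEF), cultured connective tissue cells of embryos, with the genotype ICR, an outbred mouse stock. RNA depleted of ribosomal RNA was sequenced from directional libraries. The other 5 libraries, labelled MEF, name no factor, and their levels are given beside those of the pair. Whether those cells were given a virus without a factor is not stated. MGT stands for Mef2c, Gata4 and Tbx5. The labels leave the sign Δ undefined, and it is read here, from the series title, as a change in the effector domains of MEF2C and GATA4, with the Tbx5 of the set unmarked. The promoter that drove the factors, any selection of transduced cells and the number of separate cultures were not stated. The p-values therefore measure the spread between these libraries, which may be technical. The question behind the comparison, as far as the title gives it, is whether such changed factors move fibroblasts further toward heart muscle.

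MEF2C is a DNA-binding protein of muscle and heart that recognises A/T-rich sites, GATA4 binds sites with the core GATA, and TBX5 is a T-box factor. In the embryonic heart these proteins act together on the genes of the contractile apparatus, and each carries, beside its DNA-binding part, effector regions through which it recruits coactivators or repressors. Forced expression of the set in fibroblasts yields induced cardiomyocytes (iCM), a state known for the onset of sarcomere, calcium handling and ion channel genes, for a loss of fibroblast genes and for an exit from the cell cycle. Only a part of a transduced culture usually takes this path.

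Library totals were 9570667 to 10620173 counts in MΔGΔT, 9285841 to 11128472 in MGT and 8212643 to 10387514 in MEF. On the first principal component of the log2 CPM (counts scaled to library size), which held 76.9% of the variance among the 10 compared libraries, the MΔGΔT libraries lay between 33.5 and 40.3 and the MGT libraries between -38.3 and -34.5. The features with a count were 14003 ± 7.21 in MΔGΔT and 14034 ± 8.91 in MGT (SD, n = 5 each). Ribosomal protein genes held 1.13 ± 0.0348% of the counts in MΔGΔT and 1.63 ± 0.0547% in MGT, mitochondrially encoded genes 0.600 ± 0.0721% and 0.468 ± 0.0450%, and the 50 most counted features 19.7 ± 0.154% and 17.5 ± 0.268%. These 4 measures differed between the groups in a two-sided exact permutation test adjusted over 5 measures (adjusted p = 0.0132, 0.0132, 0.0198 and 0.0132, with 0.0079 the smallest unadjusted p that 5 against 5 libraries allow), and the library total did not pass (adjusted p = 0.548). Their part in the results was not tested.

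Of the 13328 features with enough counts to be tested, 4056 (30.4%) were higher and 3706 (27.8%) lower in MΔGΔT than in MGT at an adjusted p under 0.05, by edgeR's quasi-likelihood test with Benjamini-Hochberg adjustment over all tested features. These 7762 features (58.2%) are the ones called changed below. A difference of at least 2-fold held for 694 called higher (5.21%) and 640 called lower (4.8%), and 73 and 23 differed by 3 or more on the log2 scale. Many called differences were small, with 1067 higher and 956 lower by under 0.25 on the log2 scale. The share called is therefore the background for every list below. The share also depends on the scaling: with plain library totals 2436 were called higher and 6199 lower, and with the totals implied by the deposited RPKM 1871 and 7289. Those scalings moved the median log2 fold change of all tested features, 0.01 with the TMM factors used here, to -0.16 and -0.25, so that small differences have no settled direction. In 6043 features (45.3%) the 5 MΔGΔT and 5 MGT libraries did not overlap. In the account below, levels are CPM of the TMM-scaled library, means carry the SD over 5 libraries, and log2 fold changes are MΔGΔT over MGT with their SE.

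**Figure D1:**
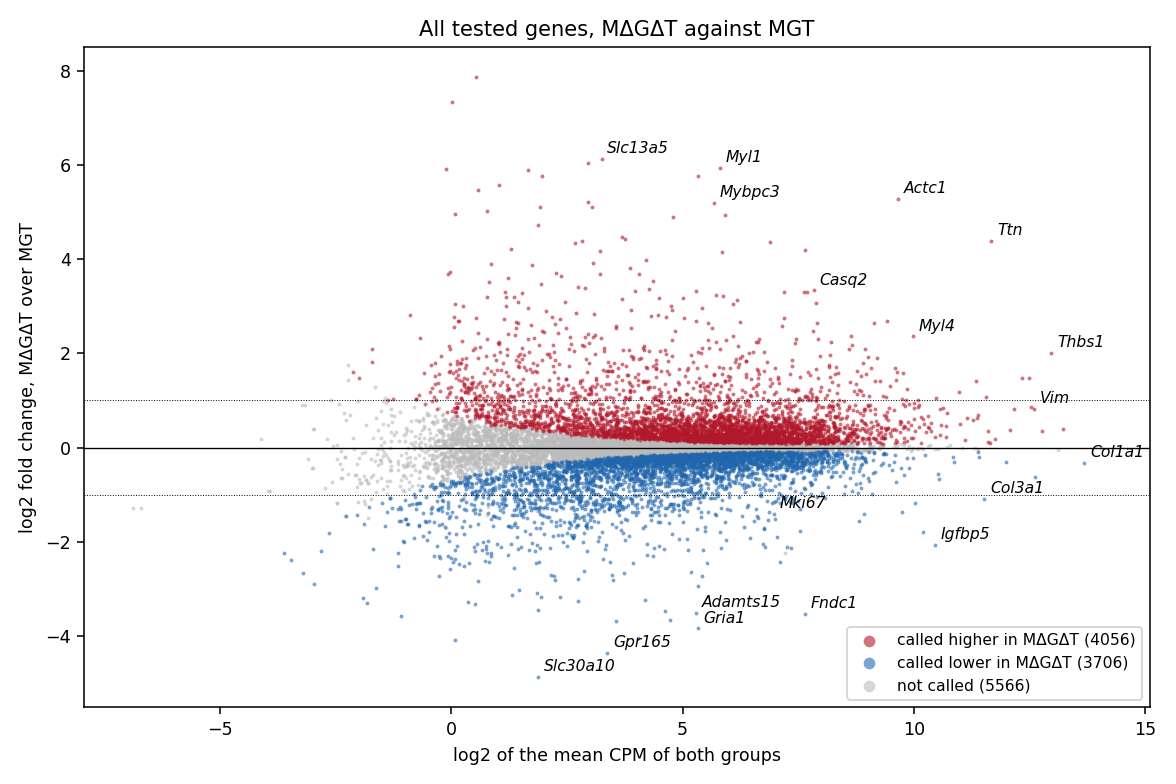
Log2 fold change of MΔGΔT over MGT (vertical axis) against the log2 of the mean CPM of both groups (horizontal axis) for the 13328 tested features. Red points are the 4056 called higher in MΔGΔT, blue points the 3706 called lower and grey points the 5566 not called. Dotted lines mark a 2-fold difference. Ttn and Actc1 stand apart among highly counted features, and the fitted fold of features near 0 counts in a group, at the left, depends on the prior count of the fit.

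The transduced factors were looked at first. Mef2c (chromosome 13, 83504034 to 83667080, mm10) had 638, 647, 619, 647 and 591 CPM in the MΔGΔT libraries, against 594, 533, 637, 558 and 565 CPM in the MGT libraries and 57.8 to 60.8 CPM in MEF. Gata4 (chromosome 14, 63198922 to 63271692) had 191, 196, 187, 192 and 191 CPM in MΔGΔT, against 156, 138, 168, 139 and 155 CPM in MGT and 1.92 to 3.13 CPM in MEF. Tbx5 (chromosome 5, 119832668 to 119885219), which is unmarked in the label, had 172, 173, 177, 181 and 169 CPM in MΔGΔT, against 122, 117, 137, 119.9 and 119 CPM in MGT and 3.74 to 5.36 CPM in MEF. The libraries of both transduced groups stood far above MEF for each factor. Between them, all MΔGΔT libraries lay above all MGT libraries for Gata4 and Tbx5, while those of Mef2c overlapped. The log2 fold change was 0.51 ± 0.041 for Tbx5, 0.34 ± 0.044 for Gata4 and 0.12 ± 0.038 for Mef2c (adjusted p = 1.4e-13, 1.7e-08 and 0.0053). The difference of Mef2c turned to -0.05 with library totals and to -0.13 with RPKM-implied totals, so its direction depended on the scaling. Gata4 fell short of the threshold with RPKM-implied totals (0.089, adjusted p = 0.11), and Tbx5 passed it under each of the 4 other scalings. Viral and cellular transcripts cannot be told apart in these counts, and a stretch missing from an engineered factor would leave no reads.

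Most genes of the contractile apparatus were higher in MΔGΔT than in MGT. Of 15 tested thick filament genes, out of 22 on the list, 13 were higher, 1 lower and 1 not called, with a median log2 fold change of 2.35. Of 22 tested thin filament genes, out of 24, 21 were higher and 1 lower (median 1.66, also with Xirp1, at 0 counts in MGT, set at its bound), and of 37 tested genes of the Z-disc and the costamere, out of 41, 31 were higher, 2 lower and 4 not called (median 0.94). Against these stand 30.4% called higher and a median of 0.01 over all tested features. Thick filament genes together held 0.953 to 1.08% of the counts in MΔGΔT libraries, 0.136 to 0.153% in MGT and 0.0141 to 0.0168% in MEF, and thin filament genes 0.588 to 0.615% of the counts in MΔGΔT libraries, 0.248 to 0.278% in MGT and 0.0841 to 0.0881% in MEF. Ttn alone made up 0.539 to 0.659% in MΔGΔT and 0.0275 to 0.0362% in MGT, and the thick filament genes without it 0.403 to 0.420% in MΔGΔT, 0.108 to 0.116% in MGT and 0.0138 to 0.0165% in MEF. In bulk RNA, more cells with these transcripts and more RNA per cell cannot be told apart.

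Ttn (chromosome 2, 76703980 to 76982547), the giant spring protein of the sarcomere, had 6619, 5970.5, 5914, 6994 and 5710.0 CPM in the MΔGΔT libraries, against 298, 259, 341, 291 and 293 CPM in the MGT libraries and 1.82 to 3.46 CPM in MEF. The groups were far apart, with a log2 fold change of 4.39 ± 0.083 (adjusted p = 3.9e-15). Actc1 (chromosome 2, 114047282 to 114053548), the cardiac actin of the thin filament, had 1566, 1562, 1573, 1602 and 1579 CPM in MΔGΔT, against 42.1, 43.3, 42.8, 39.95 and 33.5 CPM in MGT. The 5 MΔGΔT libraries lay within a narrow band some way above every MGT library (5.29 ± 0.049, adjusted p = 1.7e-42), and MEF held 1 count over its 5 libraries together. Mybpc3 (chromosome 2, 91118144 to 91136516), the cardiac myosin-binding protein C, had 100.4, 97.7, 102, 96.02 and 100.4 CPM in MΔGΔT, against 3.13, 1.54, 3.01, 3.40 and 2.24 CPM in MGT and 0 to 0.241 CPM in MEF (5.19 ± 0.091). Every MGT library held under 4 CPM of this gene, and every MΔGΔT library was far above.

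Promoter stretches of 6 muscle genes described here are shown for the letters that MEF2 and the serum response factor (SRF) are known to bind. Each is the 200 bases before the annotated start, on the strand of the gene, from the RefSeq promoter table of build GRCm38.p6. The RefSeq start lies 673 bases inside the gene as annotated by GENCODE M21, the source of the gene positions given here, for Actc1, is the first base of the GENCODE gene for the other 5, and for the promoters shown further on lies 112 bases inside for Nppb and 18 bases outside for Mki67. Capitals mark a match to the MEF2 consensus in the first 4 and a match to the CArG box, the SRF motif, in the last 2.
Ttn (chr2:76982548-76982747, minus strand): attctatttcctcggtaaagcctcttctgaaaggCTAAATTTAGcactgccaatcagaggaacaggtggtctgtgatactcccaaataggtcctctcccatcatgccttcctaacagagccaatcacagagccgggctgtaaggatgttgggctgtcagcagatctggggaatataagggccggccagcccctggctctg
Mybpc3 (chr2:91117944-91118143, plus strand): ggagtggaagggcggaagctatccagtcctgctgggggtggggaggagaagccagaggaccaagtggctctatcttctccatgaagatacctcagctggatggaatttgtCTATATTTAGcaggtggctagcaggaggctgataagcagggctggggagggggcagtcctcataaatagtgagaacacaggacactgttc
Xirp2 (chr2:67445802-67446001, plus strand): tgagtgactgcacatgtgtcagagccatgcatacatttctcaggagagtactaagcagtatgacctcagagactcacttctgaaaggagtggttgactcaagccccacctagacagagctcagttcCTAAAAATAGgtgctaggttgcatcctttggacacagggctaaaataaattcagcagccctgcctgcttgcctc
Casq2 (chr3:102086215-102086414, plus strand): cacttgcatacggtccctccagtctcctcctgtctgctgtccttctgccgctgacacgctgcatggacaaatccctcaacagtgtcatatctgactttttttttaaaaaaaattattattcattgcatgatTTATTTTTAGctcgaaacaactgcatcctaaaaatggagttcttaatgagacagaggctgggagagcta
Actc1 (chr2:114052876-114053075, minus strand): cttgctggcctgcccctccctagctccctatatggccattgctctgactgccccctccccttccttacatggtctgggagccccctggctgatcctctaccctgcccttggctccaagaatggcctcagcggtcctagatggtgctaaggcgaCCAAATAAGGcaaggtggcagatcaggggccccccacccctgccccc
Myl7 (chr11:5898783-5898982, minus strand): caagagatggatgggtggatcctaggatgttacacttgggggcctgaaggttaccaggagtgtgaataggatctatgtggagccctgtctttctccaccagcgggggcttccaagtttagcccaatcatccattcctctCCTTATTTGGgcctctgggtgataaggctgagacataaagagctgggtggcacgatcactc
The 10-base matches end 157 bases before the start in Ttn, 81 in Mybpc3, 65 in Xirp2 and 60 in Casq2, and 38 and 52 bases before it in Actc1 and Myl7. A match is a description of letters and not a bound site. The windows of Tnnt2, Myl4, Myl1, Ankrd1, Nppa and Acta2 held no match to these 2 motifs.

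The myosin genes followed the same order of groups. Myl7, the atrial regulatory light chain, had 680.4, 668, 647, 653 and 687 CPM in MΔGΔT, against 145, 124, 128, 125 and 122 CPM in MGT (2.37 ± 0.042), with 1 count in all of MEF. Myl4, the atrial essential light chain, had 1656, 1676, 1696, 1752 and 1691 CPM in MΔGΔT, against 306, 340.3, 345, 318 and 342 CPM in MGT and 1.79 to 2.40 CPM in MEF (2.36 ± 0.035). Myh6, the fast cardiac heavy chain, had 422, 400.0, 303, 386 and 399.6 CPM in MΔGΔT, against 79.1, 59.8, 67.4, 74.8 and 63.5 CPM in MGT (2.47 ± 0.098). No library of one group reached into the other for these genes. Myh7, the slow heavy chain of the ventricle, was far less counted, with 9.60 to 15.7 CPM in MΔGΔT, 1.78 to 2.89 CPM in MGT and 0 counts in MEF (2.35 ± 0.15). Reads shared between Myh6 and Myh7, and between Actc1, Acta1 and Acta2, make single values of these genes less certain. Myom1, which cross-links thick filaments in the M-band, averaged 416 ± 11.3 CPM in MΔGΔT and 66.8 ± 4.23 CPM in MGT (2.64 ± 0.042).

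**Figure D2:**
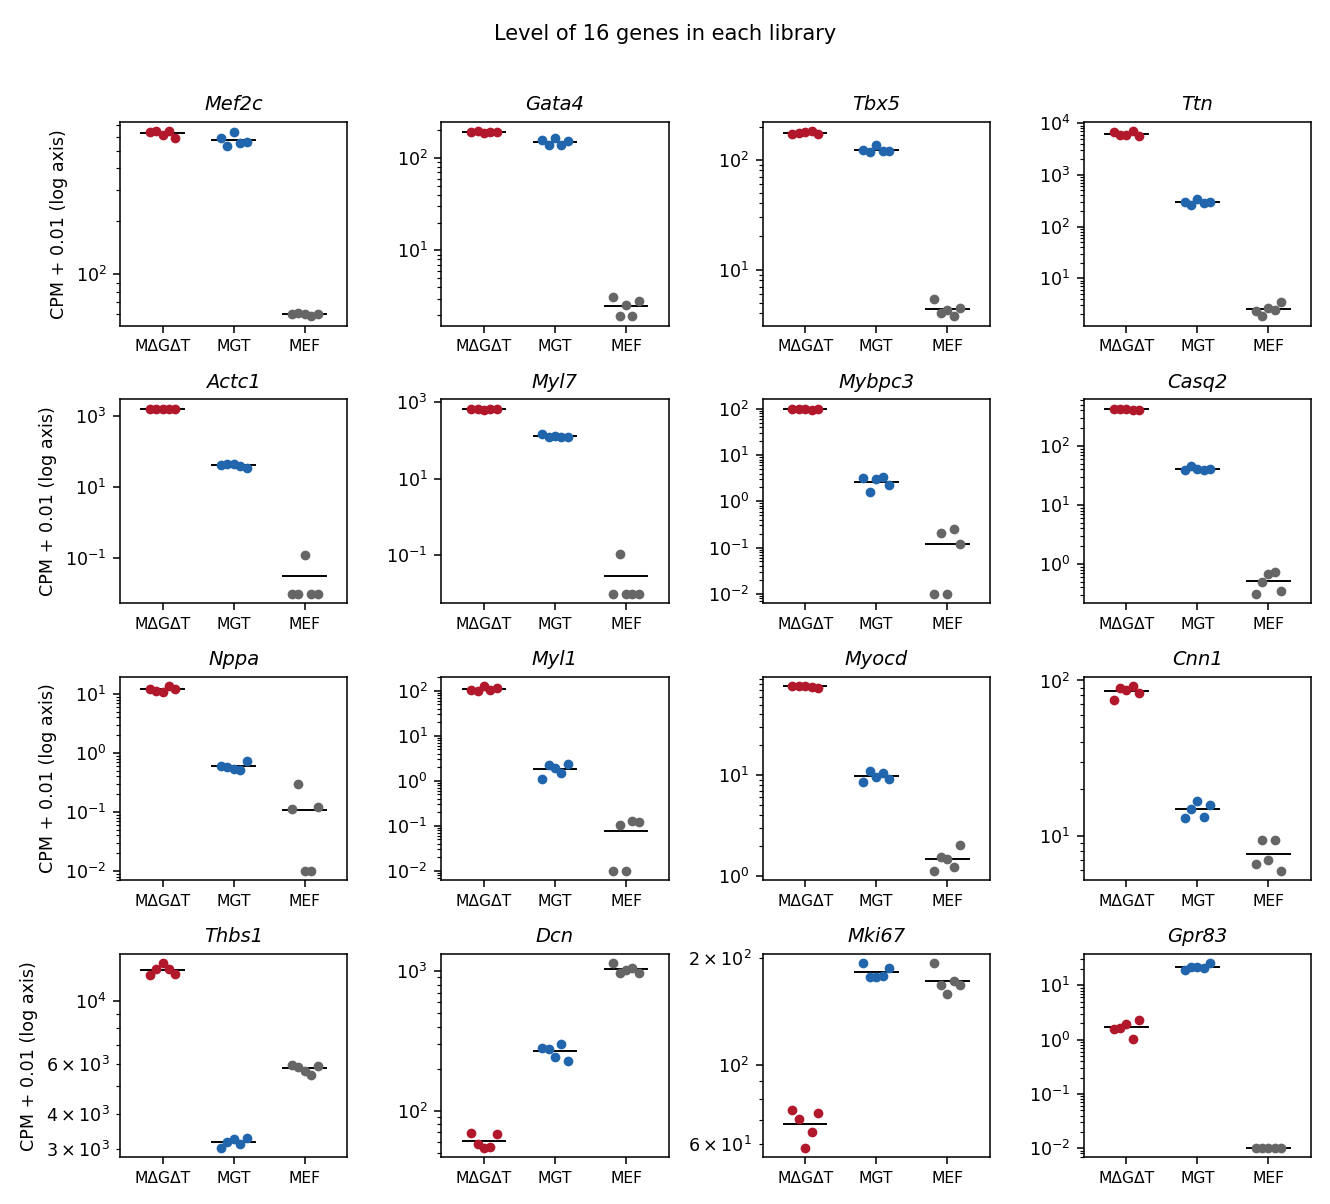
CPM + 0.01 on a log axis in each of the 5 MΔGΔT (red), 5 MGT (blue) and 5 MEF (grey) libraries for 16 genes, with a black line at the group mean plus 0.01. For Ttn the MΔGΔT libraries lie at 5710.0 to 6994 CPM and the MGT libraries at 259 to 341 CPM. The groups overlap for Mef2c and are apart for Actc1, Mybpc3, Casq2, Nppa, Myl1 and Myocd, and for Mki67 and Gpr83 the MΔGΔT libraries lie lowest of both transduced groups.

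The deposited RPKM, whose gene lengths were not stated, gave an order of levels within MΔGΔT. Actc1 averaged 815 ± 17.1 RPKM in MΔGΔT and 25.5 ± 2.92 RPKM in MGT, and Myl7 averaged 619 ± 32.99 RPKM in MΔGΔT and 143 ± 9.02 RPKM in MGT (SD, n = 5 each). Myl4 averaged 200.03 ± 6.38 RPKM in MΔGΔT and 46.6 ± 2.90 RPKM in MGT, and Tnnt2 147 ± 4.41 RPKM in MΔGΔT and 65.4 ± 4.64 RPKM in MGT. Ttn, the longest of them, averaged 40.8 ± 2.29 RPKM in MΔGΔT and 2.32 ± 0.158 RPKM in MGT. On this scale Actc1 led Myl7 and Myl4 in MΔGΔT but stood below both in MGT. In CPM the order of Actc1 and Myl4 in MΔGΔT was reversed, at 1576.5 ± 15.9 for Actc1 and 1694.4 ± 36.1 for Myl4. Myl7 and Tnnt2 also changed order, at 667 CPM for Myl7 and 1140 CPM for Tnnt2 in MΔGΔT. The RPKM of Myl7 was close to its CPM, and that of Myl4 and Tnnt2 far below it. The lengths used for Myl4 and Tnnt2 were thus far longer than that used for Myl7. Whether they are transcript lengths is not known, so the order in RPKM is not an order per transcript.

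Thin filament genes differed widely in size of change. Tnnt2, the cardiac troponin T, had 1107, 1126, 1159, 1194 and 1112 CPM in MΔGΔT, against 429, 416, 482, 381 and 411 CPM in MGT and 1.45 to 2.01 CPM in MEF (1.43 ± 0.042). Xirp2, a repeat protein that binds actin at cell junctions, had 53.7, 52.5, 57.5, 62.7 and 42.2 CPM in MΔGΔT, against 1.78, 2.31, 1.68, 1.11 and 2.24 CPM in MGT (4.89 ± 0.13). Its relative Xirp1 had 3.33, 3.13, 3.09, 2.32 and 2.72 CPM in MΔGΔT and 0 counts in all 5 MGT and all 5 MEF libraries. With the MGT group set at 3 counts in all, this put Xirp1 at least 53.5-fold higher in MΔGΔT. Its deposited RPKM averaged 9.79 in MΔGΔT, 0.146 in MGT and 0.032 in MEF. Counts and RPKM thus disagreed on whether MGT and MEF held reads of Xirp1, and the bound holds for the counts alone. Tnni3k, a heart kinase that binds cardiac troponin I, averaged 16.01 ± 0.857 CPM in MΔGΔT and 0.449 ± 0.225 CPM in MGT (5.10 ± 0.18). The exception on the list was Tnni3, the cardiac troponin I of the mature heart. It had 5.995, 4.74, 4.22, 4.65 and 5.23 CPM in MΔGΔT, against 8.47, 7.23, 6.45, 8.59 and 7.44 CPM in MGT and 0.121 to 0.575 CPM in MEF, and so fell by 0.63 ± 0.13 relative to MGT while both groups stood above MEF.

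At the Z-disc, the boundary where thin filaments are anchored, the muscle LIM protein Csrp3 had 25.4, 25.01, 25.1, 23.05 and 24.2 CPM in MΔGΔT, against 1.10, 0.675, 1.06, 1.28 and 1.33 CPM in MGT and 0 counts in MEF (4.48 ± 0.13). Myoz2, which ties calcineurin to the Z-disc, averaged 35.1 ± 2.51 CPM in MΔGΔT and 2.19 ± 0.446 CPM in MGT (3.99 ± 0.11), again with 0 counts in MEF. Itgb1bp2, a muscle chaperone also called melusin, rose by 3.41 ± 0.16, and the actin cross-linker Actn2 by 2.08 ± 0.10 to 21.2 ± 0.503 CPM, against 4.98 ± 1.01 CPM in MGT. Of this list 2 genes fell, Actn3, the actinin of fast skeletal fibres (-0.60 ± 0.18, with overlapping groups), and the intermediate filament gene Synm (-1.56), which was named after its values were seen. Mylk3, the myosin light chain kinase of the heart, was the only thick filament gene that fell (-1.63), at a mean of 0.421 CPM in MΔGΔT and 1.33 CPM in MGT, and was also named after its values were seen.

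**Figure D3:**
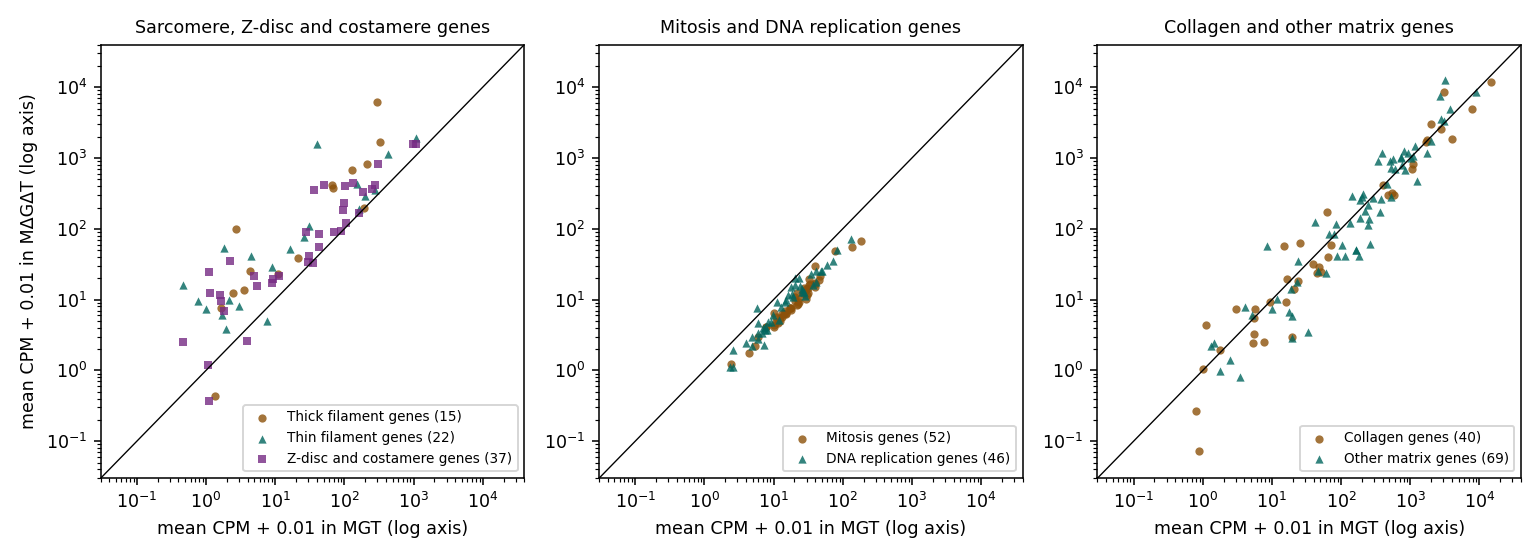
Mean CPM + 0.01 in MΔGΔT (vertical, log axis) against MGT (horizontal, log axis) for tested genes of the sarcomere, Z-disc and costamere lists (left), the mitosis and DNA replication lists (middle) and the collagen and other matrix lists (right), with the line of equal levels. Points of the left panel lie mostly above the line and those of the middle panel nearly all below it. Matrix genes fall on both sides.

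Calcium handling genes were more often higher than lower. Of 37 tested, out of 45 on the list, 22 were higher, 5 lower and 10 not called (median 0.55). Casq2, which stores calcium in the sarcoplasmic reticulum, had 417, 431, 422, 409.6 and 402 CPM in MΔGΔT, against 39.6, 45.3, 40.5, 39.4 and 41.3 CPM in MGT and 0.303 to 0.724 CPM in MEF (3.34 ± 0.043). Ryr2, the cardiac release channel, had 440.0, 446, 441, 456 and 413 CPM in MΔGΔT, against 135, 116, 138, 132 and 134 CPM in MGT and 0.446 to 1.09 CPM in MEF (1.74 ± 0.043). Atp2a2, the calcium pump of the reticulum, averaged 2109 ± 57.03 CPM in MΔGΔT, 1260.0 ± 28.1 CPM in MGT and 480.0 ± 17.5 CPM in MEF (0.74 ± 0.031). The groups were apart for all 3, with the widest gap for Casq2. The skeletal release channel Ryr1 also rose (3.19 ± 0.28), at 3.70 to 5.66 CPM in MΔGΔT and 0.289 to 0.815 CPM in MGT. Genes that fell included the T-type channel Cacna1g (-0.88 ± 0.066) and Stim1, the sensor of the calcium store (-0.48 ± 0.043).

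Sodium, potassium and gap junction channels were split, with 13 higher, 12 lower and 12 not called of 37 tested, out of 54 on the list (median 0.13, and -0.13 with RPKM-implied totals). The potassium channel Kcna4 had 13.7, 13.8, 13.4, 12.6 and 13.9 CPM in MΔGΔT, against 1.69, 1.25, 1.15, 1.36 and 0.815 CPM in MGT (3.40 ± 0.15). The sodium channel subunit Scn4b rose by 2.67 ± 0.23. A potassium and a pacemaker channel were lower in MΔGΔT than in MGT. Kcnh2, the rapid delayed rectifier, had 2.55, 2.02, 2.27, 2.43 and 3.81 CPM in MΔGΔT, against 7.46, 6.94, 7.96, 7.99 and 7.54 CPM in MGT and 0.895 to 1.52 CPM in MEF (-1.54 ± 0.15). Hcn4, the pacemaker channel, had 7.66, 10.6, 7.21, 7.18 and 9.37 CPM in MΔGΔT, against 11.9, 11.4, 10.3, 11.99 and 12.8 CPM in MGT and 0.224 to 1.33 CPM in MEF, and fell by 0.47 ± 0.12 with 1 MΔGΔT library inside the MGT range. Kcnip2, a subunit of the transient outward channel, fell by 1.49 ± 0.19. Gja1, the connexin shared by heart and fibroblasts, averaged 340.1 ± 21.3 CPM in MΔGΔT, 574 ± 36.2 CPM in MGT and 377 ± 4.89 CPM in MEF (-0.76 ± 0.040). The atrial connexin Gja5 had 5 to 10 counts in an MΔGΔT library, 0 to 5 in an MGT library and 0 in MEF, too few to be tested.

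Natriuretic peptide and stretch-responsive genes gave 11 higher, 2 lower and 3 not called of 16 tested, out of 19 on the list (median 1.12, also with Xirp1 at its bound). Nppa, the atrial natriuretic peptide, had 12.3, 11.4, 10.9, 13.7 and 12.2 CPM in the MΔGΔT libraries, against 0.593, 0.578, 0.530, 0.510 and 0.714 CPM in the MGT libraries and 0 to 0.287 CPM in MEF (4.35 ± 0.18). Nppb, the B-type peptide, had 4.55, 3.73, 3.40, 5.15 and 3.38 CPM in MΔGΔT, against 0, 0.0964, 0.0884, 0.0850 and 0.102 CPM in MGT and 0 to 0.287 CPM in MEF (5.57 ± 0.37). Every MΔGΔT library held both peptides above every MGT library, and for Nppb no MGT library held more than 1 count. Ankrd1, a stretch-responsive titin-binding protein, had 392, 419, 431, 420.1 and 364 CPM in MΔGΔT, against 78.3, 84.6, 89.02, 79.8 and 80.1 CPM in MGT and 2.20 to 3.74 CPM in MEF (2.30 ± 0.048). Ctgf, a matrix-associated growth factor, averaged 1193 ± 42.4 CPM in MΔGΔT, 390.0 ± 20.3 CPM in MGT and 170.2 ± 6.04 CPM in MEF (1.61 ± 0.036). The 2 that fell were the clearance receptor Npr3 (-0.78 ± 0.072) and the glucocorticoid-induced factor Klf15 (-0.66 ± 0.12). The Nppb promoter is shown because it holds GATA letters close together. Capitals mark both matches to GATAA, whose last bases lie 90 and 79 bases before the start.
Nppb (chr4:147985700-147985899, plus strand): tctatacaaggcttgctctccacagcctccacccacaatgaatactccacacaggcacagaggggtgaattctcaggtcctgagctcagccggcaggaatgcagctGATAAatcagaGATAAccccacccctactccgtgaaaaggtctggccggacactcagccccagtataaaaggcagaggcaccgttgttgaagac

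Markers of the heart chambers were split. Of 13 tested atrial markers, out of 17, 6 were higher, 3 lower and 4 not called, and of 8 tested ventricular markers, out of 13, 4 were higher, 3 lower and 1 not called, with medians of 0.38 and 0.46. Beside Myl7, Myl4 and Nppa, the intracellular fibroblast growth factor homologue Fgf12 rose among atrial markers (2.55 ± 0.12, 20.3 ± 1.23 CPM in MΔGΔT and 3.42 ± 0.847 CPM in MGT), while Stard10 (-1.51 ± 0.11) and the nuclear receptor Nr2f2 (-0.51 ± 0.058) fell. Among ventricular markers, Myh7, Lbh (1.12 ± 0.041) and Mpped2 (1.14 ± 0.12) rose, and Tnni3 and Gja1 fell. The lists share the light chains and peptides with those above and are not separate from them.

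Cardiac transcription factors other than the transduced set were split, with 14 higher, 8 lower and 9 not called of 31 tested, out of 39 (median -0.02), and 12 higher and 15 lower with library totals. Myocd, the coactivator of SRF in heart and smooth muscle, had 75.9, 75.9, 76.6, 75.2 and 73.3 CPM in MΔGΔT, against 8.47, 10.99, 9.64, 10.5 and 9.07 CPM in MGT and 1.11 to 2.01 CPM in MEF (2.95 ± 0.066, adjusted p = 1.2e-31). This made it the largest rise on the list, with tight values within each group. Lmcd1, a LIM protein that restrains GATA6, rose by 1.36 ± 0.060. Tbx20, a T-box factor of the heart, had 5.995, 4.44, 3.50, 4.45 and 3.92 CPM in MΔGΔT, against 8.64, 8.48, 9.55, 9.61 and 9.38 CPM in MGT and 0.767 to 1.12 CPM in MEF, and so fell by 1.04 ± 0.12 relative to MGT although it stood above MEF in both. Hopx, a cofactor that antagonises SRF, fell by 1.28 ± 0.18. Of the cofactors and chromatin regulators of MEF2 and GATA factors, 11 were higher, 15 lower and 15 not called of 41 tested (median -0.02), and 3 higher and 32 lower with RPKM-implied totals. Smarcd3, the cardiac subunit of the BAF remodelling complex, rose by 0.66 ± 0.056 and the MEF2 repressor Hdac9 by 0.85 ± 0.084, while the Polycomb methyltransferase Ezh2 fell by 0.69 ± 0.072.

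Most genes known from skeletal and smooth muscle were higher as well. Both lists share genes with the thin filament, Z-disc or calcium lists above, such as Acta1, Des, Ryr1, Tpm1 and Vcl, and are not separate from them. Of 18 tested skeletal muscle markers, out of 40, 14 were higher, 2 lower (1 without MΔGΔT replicate 2) and 2 not called (median 1.54, and 1.24 to 1.59 with single libraries left out). Myl1, the fast skeletal light chain, had 102, 99.9, 128, 104 and 114 CPM in MΔGΔT, against 1.10, 2.22, 1.94, 1.45 and 2.34 CPM in MGT and 3 counts in all of MEF (5.94 ± 0.11). Myh1, a fast skeletal heavy chain, had 29.98, 27.7, 25.3, 30.02 and 28.4 CPM in MΔGΔT, against 2.63, 2.99, 2.74, 2.30 and 3.57 CPM in MGT and 3.13 to 4.13 CPM in MEF (3.32 ± 0.10). Myh3, the embryonic heavy chain, had 1.92 to 5.66 CPM in MΔGΔT and 0.169 to 0.771 CPM in MGT (3.31 ± 0.33). None of these groups overlapped, and the levels of Myl1 in MΔGΔT were close to those of Mybpc3 in CPM, a scale that does not allow for length. Myog, a master regulator of skeletal muscle, had 5 to 14 counts in an MΔGΔT library, 0 to 2 in an MGT library and 0 in MEF, too few to be tested. Myod1 and Myf5, also on the skeletal list, were not among the listed features. Pax3, a factor of muscle precursors, fell with overlapping groups (-0.37 ± 0.13), and this call was lost without MΔGΔT replicate 2 (-0.31).

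Of 37 genes of smooth muscle and the SRF-dependent cytoskeleton, all tested, 30 were higher and 7 lower (median 0.83). Acta2, smooth muscle actin, had 3633, 3783, 3946, 3801 and 3759 CPM in MΔGΔT, against 1342, 1433, 1496, 1349.8 and 1519.6 CPM in MGT and 727 to 843 CPM in MEF (1.41 ± 0.039). Cnn1, the calponin of smooth muscle, had 75.1, 88.9, 86.3, 92.4 and 83.1 CPM in MΔGΔT, against 13.05, 14.8, 16.8, 13.3 and 15.8 CPM in MGT and 5.91 to 9.42 CPM in MEF (2.53 ± 0.077). Tagln, an actin-binding protein, averaged 571 ± 23.02 CPM in MΔGΔT and 216 ± 9.81 CPM in MGT (1.40 ± 0.047). Myh11, the smooth muscle heavy chain, averaged 130.0 ± 9.21 CPM in MΔGΔT and 36.7 ± 4.55 CPM in MGT (1.83 ± 0.061). For all 4 the order was MΔGΔT above MGT above MEF with no overlap between the transduced groups. The falls were led by Pcp4l1 (-1.36 ± 0.21), the adhesion enzyme Aoc3 (-0.93 ± 0.21, with overlapping groups) and the myosin phosphatase subunit Ppp1r12b (-0.67 ± 0.077).

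Genes for the assembly, splicing and signalling of striated muscle gave 30 higher, 3 lower and 5 not called of 38 tested, out of 51 on the list (median 0.52). Rbm20, which directs the splicing of Ttn, had 129.9, 128, 134, 140.3 and 119.7 CPM in MΔGΔT, against 13.9, 14.4, 16.4, 13.9 and 15.6 CPM in MGT and 1.42 to 2.40 CPM in MEF (3.14 ± 0.059). The muscle ubiquitin ligase subunit Fbxo40 rose by 3.48 ± 0.21, and Adprhl1, a heart-restricted protein of the ADP-ribosylhydrolase family, had 1.63 to 5.11 CPM in MΔGΔT and 0 to 0.169 CPM in MGT (5.02 ± 0.43). The 3 that fell were Asb4 (-1.31 ± 0.12), the splicing regulator Rbm24 (-0.48 ± 0.12) and the actin regulator Cap2 (-0.33 ± 0.053). Each of them had a lower level in MEF than in both transduced groups, with Rbm24 at 5.05 to 6.86 CPM in MΔGΔT, 6.93 to 9.69 CPM in MGT and 0.303 to 0.893 CPM in MEF.

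Genes of energy metabolism changed less. Of 42 tested genes of muscle energy metabolism, out of 50, 26 were higher, 8 lower and 8 not called (median 0.27), but with RPKM-implied totals 14 were higher and 17 lower (median 0.0095). The insulin-responsive glucose transporter Slc2a4 averaged 33.3 ± 1.36 CPM in MΔGΔT and 9.79 ± 1.21 CPM in MGT (1.77 ± 0.077), and hexokinase Hk2 196 ± 8.91 and 60.3 ± 3.89 CPM (1.70 ± 0.045). Cpt1b, the muscle gate for fatty acids into mitochondria, rose by 2.12 ± 0.47, and myoglobin, Mb, by 0.51 ± 0.10, to 10.7 to 13.2 CPM in MΔGΔT against 7.63 to 9.99 CPM in MGT. Ppargc1a, the coactivator of mitochondrial biogenesis, had 1.78, 1.92, 1.96, 1.42 and 2.29 CPM in MΔGΔT, against 5.42, 3.76, 4.60, 4.42 and 5.40 CPM in MGT and 4.25 to 5.76 CPM in MEF, and fell by 1.33 ± 0.17. Of 38 nuclear genes of oxidative phosphorylation, 9 were higher, 5 lower and 24 not called (median 0.03, and -0.22 with RPKM-implied totals). With library totals 0 were higher and 19 lower, with RPKM-implied totals 0 and 27, and with upper-quartile factors 4 and 11, so the direction of this list depended on the scaling. The number lower was 3 without MΔGΔT replicate 4 or without any one of MGT replicates 2, 3 and 5. The mitochondrially encoded genes gave 9 higher and 3 not called of 12 tested (median 0.52), 5 higher and 0 lower with RPKM-implied totals, with mt-Co1 at 3329, 3015, 2747, 3715 and 3115 CPM in MΔGΔT and 2051, 2360.5, 1879.7, 2110.1 and 1955 CPM in MGT (0.62 ± 0.097). Counts and RPKM disagreed within this list. In MΔGΔT mt-Co3 held 121 counts at a mean RPKM of 1334.8, and mt-Co1 151919 counts at 1725.5. The calls of the list and its share of the counts given above rest on the counts alone.

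**Figure D4:**
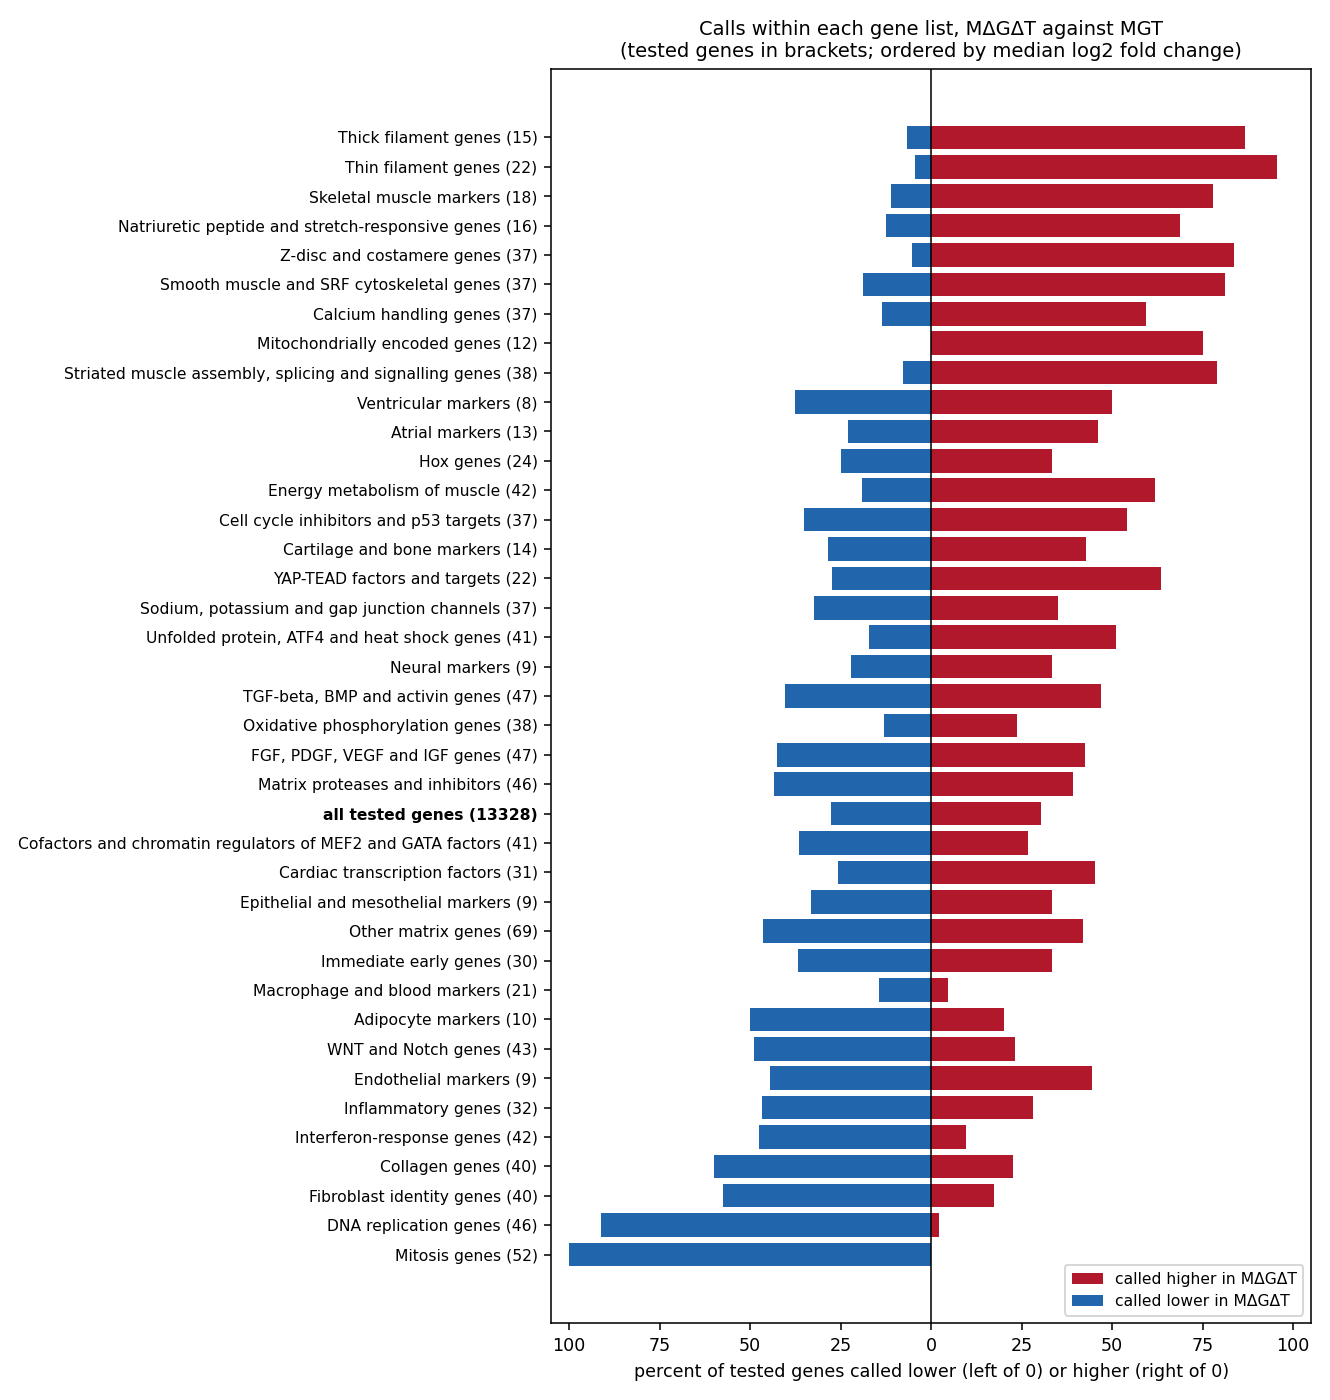
Percent of tested genes called higher (red, right of 0) and lower (blue, left of 0) in MΔGΔT than in MGT for each gene list, with tested genes in brackets and lists ordered by median log2 fold change. Thick and thin filament lists stand at the top with 13 of 15 and 21 of 22 higher, the mitosis list at the bottom with 52 of 52 lower, and all tested genes (bold) at 30.4% and 27.8%. The medians of the cell cycle inhibitor, channel, TGF-beta, FGF, protease, oxidative phosphorylation, unfolded protein, YAP-TEAD, neural and cartilage lists are below 0 with RPKM-implied totals.

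Nearly all genes of mitosis and DNA replication were lower in MΔGΔT than in MGT. All 52 mitosis genes tested were lower, 40 of them by at least 2-fold (median -1.19), against 27.8% of all tested features called lower and 4.8% lower by at least 2-fold. Of 46 DNA replication genes, 42 were lower, 1 higher and 3 not called (median -0.85). Mitosis genes together held 0.0561 to 0.0668% of the counts in MΔGΔT libraries, 0.147 to 0.156% in MGT and 0.110 to 0.116% in MEF, so that MΔGΔT was lowest of the 3 groups and MGT highest. Mki67 (chromosome 7, 135689784 to 135716361), the proliferation marker Ki-67, had 74.7, 70.6, 58.3, 64.9 and 73.2 CPM in MΔGΔT, against 193, 177, 176, 177 and 187 CPM in MGT and 193, 168, 158, 172 and 167 CPM in MEF. No MΔGΔT library came near an MGT library (-1.41 ± 0.057, adjusted p = 2.8e-18), while MGT and MEF libraries overlapped.

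The largest falls on the mitosis list at a mean of at least 2 CPM in MGT were, beside Mki67, those of the spindle checkpoint kinase Bub1b, with 9.33, 10.7, 9.68, 8.09 and 13.1 CPM in MΔGΔT and 30.6, 32.9, 28.02, 27.1 and 29.2 CPM in MGT (-1.54 ± 0.086), and of the phosphatase Cdc25b (-1.38 ± 0.085). Among replication genes, the helicase subunits Mcm5 (-1.32 ± 0.081) and Mcm3 (-1.22 ± 0.069) and thymidine kinase Tk1 (-1.66 ± 0.17) fell. The one replication gene called higher was Gins3 (0.39 ± 0.13), a subunit of the replicative helicase, with overlapping groups. Cell cycle inhibitors and p53 targets gave 20 higher, 13 lower and 4 not called of 37 (median 0.22, and -0.03 with RPKM-implied totals). Cdkn1a, the inhibitor p21, had 534, 544, 585, 559.9 and 543 CPM in MΔGΔT, against 306, 327, 347, 305 and 337 CPM in MGT and 145 to 154 CPM in MEF (0.77 ± 0.037). Cdkn2b, the inhibitor p15 of cyclin D kinases, averaged 113 ± 7.61 CPM in MΔGΔT, 50.1 ± 1.97 CPM in MGT and 34.9 ± 0.869 CPM in MEF (1.18 ± 0.047). Another inhibitor, Cdkn2c, fell (-1.57 ± 0.10), as did the p53 target Sesn1 (-1.28 ± 0.054) and the nuclear lamin Lmnb1 (-1.12 ± 0.054).

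The Mki67 promoter is shown as an example of mitotic gene promoters, which are known for CCAAT boxes and for the letters TTTGAA of the cell cycle genes homology region. Capitals mark the matches, on either strand, to CCAAT and TTTGAA in the 200 bases before the start.
Mki67 (chr7:135716380-135716579, minus strand): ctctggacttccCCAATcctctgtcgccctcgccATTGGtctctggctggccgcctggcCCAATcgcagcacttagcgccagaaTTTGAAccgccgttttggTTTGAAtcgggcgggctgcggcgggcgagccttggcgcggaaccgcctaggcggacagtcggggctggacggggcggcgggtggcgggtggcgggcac
In windows of 300 bases around the start, TTTGAA stood in 71.1% and CCAAT in 73.3% of 45 mitosis promoters, against 11.6% and 38.6% of the 10175 promoters of all tested genes. The E2F letters GGCGGGAA stood in 18.4% of 38 DNA replication promoters and in 0 of the 45 mitosis promoters, against 4.15% of all. These shares describe the lists and do not depend on the calls.

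Fibroblast and matrix genes were split, and the split ran within families. Of 40 tested fibroblast identity genes, out of 42, 23 were lower, 7 higher and 10 not called (median -0.56). Dcn, the small proteoglycan decorin, had 69.2, 57.8, 53.97, 54.98 and 67.9 CPM in MΔGΔT, against 281, 278, 244, 301 and 226 CPM in MGT and 969 to 1141 CPM in MEF (-2.13 ± 0.096). Dlk1, a Notch-like protein of immature mesenchyme, had 17.8, 14.3, 10.9, 12.3 and 16.9 CPM in MΔGΔT, against 102, 94.2, 56.7, 80.8 and 56.7 CPM in MGT and 809.5 to 877 CPM in MEF (-2.44 ± 0.20). Pdgfra, a receptor for platelet-derived growth factor on fibroblasts, averaged 75.3 ± 12.1 CPM in MΔGΔT, 170.3 ± 19.8 CPM in MGT and 416 ± 11.3 CPM in MEF (-1.18 ± 0.10). For these 3 genes every MΔGΔT library was below every MGT library, and every MGT library below every MEF library. The progenitor antigen Cd34 (-2.71 ± 0.23) and the odd-skipped factor Osr2 (-2.14 ± 0.16) fell likewise.

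Other fibroblast genes were higher in MΔGΔT. Thy1, a surface antigen used to sort fibroblasts, had 297, 290.1, 316, 299.6 and 297 CPM in MΔGΔT, against 133, 140.1, 133, 127 and 132 CPM in MGT and 173 to 225 CPM in MEF (1.17 ± 0.047), so that it was above MEF in MΔGΔT and below MEF in MGT. Vim, the mesenchymal intermediate filament, had 7640.0, 8013, 8368, 7543 and 7763 CPM in MΔGΔT, against 4302, 4472, 4484, 4450.1 and 4705 CPM in MGT and 2377 to 2487 CPM in MEF (0.81 ± 0.030). S100a4 rose by 0.66 ± 0.086. Tcf21, a factor of cardiac fibroblasts, had 2 to 6 counts in an MΔGΔT library, 6 to 13 in an MGT library and 5 to 7 in a MEF library, too few to be tested.

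Collagen genes gave 24 lower, 9 higher and 7 not called of 40 tested, out of 42 (median -0.36). Col1a1, the main chain of type I collagen, had 11691, 12225, 11638, 11053 and 11783 CPM in MΔGΔT, against 14818, 14461, 14325, 14183 and 15059 CPM in MGT and 20921 to 25236 CPM in MEF (-0.32 ± 0.038). Col3a1, of type III collagen, had 2019, 1838, 1776, 1693 and 2004 CPM in MΔGΔT, against 4141, 4126, 3739, 4147 and 3837 CPM in MGT and 10919 to 13722 CPM in MEF (-1.10 ± 0.064). Both interstitial collagens were lowest in MΔGΔT, with the wider gap for Col3a1. Col12a1, a fibril-associated collagen, ran the other way with 8404, 8638, 8360.0, 8682 and 8068 CPM in MΔGΔT, against 2909.5, 3018, 3298, 2918 and 3084 CPM in MGT and 4159 to 4693 CPM in MEF (1.47 ± 0.034). Col15a1, a collagen of basement membranes, had 57.4 ± 3.07 CPM in MΔGΔT, 14.7 ± 0.770 CPM in MGT and 59.4 ± 3.10 CPM in MEF (1.96 ± 0.061), which left MΔGΔT close to MEF. Col28a1 fell most of those with enough counts (-2.71 ± 0.12). It averaged 2.97 ± 0.805 CPM in MΔGΔT, 19.4 ± 1.55 CPM in MGT and 1.88 ± 0.376 CPM in MEF. Unlike Col1a1 and Col3a1, which were highest in MEF, Col28a1 was thus highest in MGT.

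Among 69 other matrix genes tested, out of 73, 29 were higher, 32 lower and 8 not called (median -0.08). Thbs1, thrombospondin 1, had 12279, 12981, 13577, 12910.0 and 12440.0 CPM in MΔGΔT, against 3026, 3171, 3273, 3120.3 and 3280.4 CPM in MGT and 5496 to 5955 CPM in MEF (2.02 ± 0.032, adjusted p = 1.4e-36). As for Thy1, Col12a1 and Col15a1, its level was lowest in MGT, and no MGT library reached a library of another group. Postn, periostin of activated fibroblasts, had 940.3, 954, 1009, 954 and 979 CPM in MΔGΔT, against 527, 573, 524, 583 and 579 CPM in MGT and 3369.8 to 3766 CPM in MEF (0.80 ± 0.035). Acan, the cartilage proteoglycan aggrecan, averaged 56.8 ± 4.79 CPM in MΔGΔT and 8.43 ± 0.397 CPM in MGT (2.75 ± 0.077). Tnxb (-3.23 ± 0.15) and Emilin2 (-2.80 ± 0.12) led the falls. Matrix proteases and their inhibitors were even, with 18 higher, 20 lower and 8 not called of 46 tested (median 0.03, and -0.23 with RPKM-implied totals). The procollagen peptidase Adamts2 fell by 2.11 ± 0.065.

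Signalling genes changed in both directions. Of 47 tested genes of the TGF-beta, BMP and activin pathways, 22 were higher and 19 lower (median 0.07), and 13 and 24 with RPKM-implied totals (median -0.19). Ligands that rose were Tgfb2, at 451, 494, 487, 470.5 and 458 CPM in MΔGΔT and 181, 191, 195, 178 and 190.3 CPM in MGT (1.34 ± 0.041), and the activin subunit Inhba, at 90.04, 89.8, 94.5, 93.5 and 83.98 CPM in MΔGΔT and 20.9, 21.3, 20.3, 21.7 and 21.1 CPM in MGT (2.10 ± 0.057). Both ligands were higher in every MΔGΔT library. Grem1, an antagonist of BMP, averaged 494 ± 37.01 CPM in MΔGΔT, 165 ± 6.97 CPM in MGT and 32.9 ± 1.80 CPM in MEF (1.58 ± 0.043), and the activin antagonist Fstl3 rose by 1.69 ± 0.10. The ligands Gdf10 (-1.95 ± 0.17) and Bmp2 (-1.59 ± 0.14) and the BMP target Id3 (-1.42 ± 0.074) fell.

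WNT and Notch genes gave 10 higher, 21 lower and 12 not called of 43 tested, out of 53 (median -0.22, and -0.14 without MGT replicate 4). The secreted WNT antagonist Wif1 had 20.1, 21.9, 20.8, 21.3 and 17.5 CPM in MΔGΔT, against 3.22, 3.86, 2.83, 3.15 and 3.98 CPM in MGT (2.59 ± 0.11), and the WNT target Axin2 rose by 1.39 ± 0.071. The ligand Wnt2 (-1.71 ± 0.18) and the receptor Fzd4 (-1.69 ± 0.056) fell. FGF, PDGF, VEGF and IGF genes were even, with 20 higher and 20 lower of 47 tested (median 0.03, and -0.23 with RPKM-implied totals). Pgf, a ligand of the VEGF family, had 14.9, 13.6, 19.7, 15.9 and 14.4 CPM in MΔGΔT, against 0.932, 0.771, 1.24, 0.935 and 1.22 CPM in MGT (3.93 ± 0.17), and its receptor Flt1 averaged 486 ± 18.8 CPM in MΔGΔT and 149 ± 9.59 CPM in MGT (1.70 ± 0.043). Ligand and receptor were thus higher together. The IGF-binding protein Igfbp5 had 604, 612, 408, 471 and 617 CPM in MΔGΔT, against 2594, 2299, 2063, 2453 and 1970.2 CPM in MGT and 1908 to 2182.2 CPM in MEF (-2.07 ± 0.12). Of the YAP-TEAD factors and targets, 14 were higher, 6 lower and 2 not called of 22 tested (median 0.16), and 9 higher and 11 lower with RPKM-implied totals (median -0.10). Beside Ankrd1 and Ctgf, the factor Tead4 rose by 1.25 ± 0.10.

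Immune and immediate early genes were lower or mixed. Stress genes were more often higher, but their direction depended on the scaling. Interferon-response genes gave 20 lower, 4 higher and 18 not called of 42 tested, out of 45 (median -0.30), led by Ifit3 (-2.07 ± 0.19), whose reads may be shared with Ifit3b. Isg15, an interferon-induced ubiquitin-like protein, had 1.82 to 3.23 CPM in MΔGΔT and 2.55 to 2.89 CPM in MGT and was not called (adjusted p = 0.89). Inflammatory genes gave 15 lower, 9 higher and 8 not called of 32 tested (median -0.27). The chemokine Cxcl1 (-2.44 ± 0.22) and the alarmin Il33 (-2.07 ± 0.12) fell, whereas Ptgs2, the inducible cyclooxygenase, had 115, 108, 112, 120.2 and 111 CPM in MΔGΔT, against 33.6, 38.4, 32.6, 36.04 and 32.3 CPM in MGT and 14.2 to 16.5 CPM in MEF (1.71 ± 0.050). The cytokine Lif rose as well (1.25 ± 0.072). Immediate early genes gave 10 higher, 11 lower and 9 not called of 30 (median -0.08), with Dusp5 (1.31 ± 0.061) among the rises and Klf2 (-1.22 ± 0.11) among the falls. Unfolded protein, ATF4 and heat shock genes gave 21 higher, 7 lower and 13 not called of 41 (median 0.11), but 4 higher and 21 lower with RPKM-implied totals (median -0.14). The number lower was 3 without MΔGΔT replicate 4 and 4 without MGT replicate 2. The 1 member higher by at least 2-fold was Atf6, a sensor of the unfolded protein response, at 244 ± 5.32 CPM in MΔGΔT and 119.9 ± 4.29 CPM in MGT (1.02 ± 0.037). Hox genes gave 8 higher, 6 lower and 10 not called of 24 tested, out of 39 (median 0.28), and 4 higher and 6 lower with RPKM-implied totals.

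Markers of other cell types were checked for cells that a fibroblast culture could hold. Of 21 tested macrophage and blood markers, out of 23, 3 were lower, 1 higher (2 without MGT replicate 1) and 17 not called (median -0.19), and 0 were higher and 9 lower with RPKM-implied totals. They held 0.0266 to 0.0388% of the counts in MΔGΔT libraries, 0.0243 to 0.0436% in MGT and 0.305 to 0.394% in MEF. The blood cell antigen Ptprc had 5.22, 6.86, 4.94, 5.56 and 3.81 CPM in MΔGΔT, against 7.20, 5.98, 3.80, 5.70 and 5.20 CPM in MGT and 58.4 to 71.4 CPM in MEF, with overlap of the transduced groups (adjusted p = 0.7). Macrophage transcripts were thus present in all groups, at a lower level in both transduced groups than in MEF. Of 9 tested endothelial markers, out of 18, 4 were higher and 4 lower. Flt1 and Ptprb (2.16 ± 0.097) rose, and Tek (-2.45 ± 0.27) and Erg (-0.83 ± 0.17) fell. Cdh5, which defines endothelium, had 0 or 1 count in an MΔGΔT library, 0 to 3 in an MGT library and 9 to 22 in a MEF library. The endothelial list together held 0.0533 to 0.0575% of the counts in MΔGΔT libraries, 0.0227 to 0.0249% in MGT and 0.0211 to 0.0232% in MEF. Most of this was Flt1, and without it the list held 0.00846 to 0.00937% in MΔGΔT, 0.00731 to 0.00829% in MGT and 0.0101 to 0.0106% in MEF. Of 9 tested neural markers, 3 were higher and 2 lower, led by the intermediate filament Nes, with 733, 741, 768, 758 and 691 CPM in MΔGΔT, 210.3, 215, 228, 200.28 and 209 CPM in MGT and 31.1 to 34.6 CPM in MEF (1.80 ± 0.037), which is also made by developing muscle. Sox10, of neural crest and glia, had 4 to 9 counts in an MΔGΔT library, 5 to 10 in an MGT library and 27 to 40 in a MEF library. Of 9 tested epithelial and mesothelial markers, 3 were higher and 3 lower (1 lower without any one of MΔGΔT replicates 1, 3 and 5 and MGT replicates 2 and 3), with the mesothelial Msln (2.25 ± 0.075) and Upk1b (3.68 ± 0.11) higher and Wt1 (-1.53 ± 0.17) lower. Cdh1, the cadherin of epithelium, had 0 or 1 count in an MΔGΔT library, 0 to 2 in an MGT library and 4 to 15 in a MEF library. Adipocyte markers gave 2 higher and 5 lower of 10 tested, and cartilage and bone markers 6 higher and 4 lower of 14 (4 and 6 with library totals). Col2a1, the collagen of cartilage, had 153 to 182 counts in an MΔGΔT library, 36 to 90 in an MGT library and 35 to 66 in a MEF library. The part of these cells in the other results was not tested.

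The largest rises were sought among called genes with at least 2 mean CPM in the higher group and no overlap of libraries. Predicted genes and dates were left out. The 15 rises were Xirp1, Slc13a5, Chrnb3, Myl1, Crh, Foxa2, Slitrk4, Nppb, Slc6a19, Actc1, Wfdc1, Mybpc3, Neto1, Tnni3k and Adprhl1. Xirp1, Myl1, Nppb, Actc1, Mybpc3, Tnni3k and Adprhl1, described above, are known from striated muscle, and others of the 15 from other tissues. Slc13a5, a citrate transporter, had 20.2, 18.8, 16.3, 22.2 and 16.2 CPM in MΔGΔT, against 0.339, 0.482, 0.265, 0.0850 and 0.102 CPM in MGT (6.14 ± 0.20). Slitrk4, a neuronal membrane protein, had 76.8, 83.3, 80.7, 81.5 and 75.7 CPM in MΔGΔT, against 1.53, 1.06, 1.68, 1.45 and 1.53 CPM in MGT and 0.121 to 0.287 CPM in MEF (5.76 ± 0.089). Chrnb3, a subunit of neuronal acetylcholine receptors, had 17.4, 14.5, 17.2, 13.7 and 13.2 CPM in MΔGΔT, against 0.169, 0, 0.354, 0.425 and 0.102 CPM in MGT and 0 counts in MEF (6.05 ± 0.23). That no MGT library reached an MΔGΔT library was a condition of the choice of these genes. Foxa2, a factor of endoderm, had 6.10 to 9.06 CPM in MΔGΔT and 0.0847 to 0.306 CPM in MGT (5.78 ± 0.29), and Crh, a hypothalamic hormone, 4.85 to 8.24 and 0 to 0.204 CPM (5.91 ± 0.34).

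The largest falls under the same conditions were Slc30a10, Gpr165, Galnt9, Gria1, Gpr83, Fam180a, Fndc1, Adamts15, Ccdc3, Sv2b, Abca8a, Asic4, Car14, Tnxb and Hlf. They differ in how they stood in MEF. Gpr83, a G protein-coupled receptor, had 1.55, 1.61, 1.96, 1.01 and 2.29 CPM in MΔGΔT, against 18.9, 22.1, 21.8, 20.7 and 25.8 CPM in MGT and 0 counts in MEF (-3.69 ± 0.14). Gria1, an AMPA-type glutamate receptor subunit, had 6.66, 7.16, 2.37, 4.25 and 5.88 CPM in MΔGΔT, against 81.8, 74.5, 72.6, 84.5 and 62.99 CPM in MGT and 12.6 to 16.5 CPM in MEF (-3.84 ± 0.15). Slc30a10, a manganese exporter, had 0.111, 0, 0.618, 0.101 and 0.327 CPM in MΔGΔT, against 6.10, 6.46, 8.93, 7.99 and 6.22 CPM in MGT and 0 to 0.241 CPM in MEF (-4.88 ± 0.30). For these 3 genes MGT stood above both other groups. Car14, a membrane carbonic anhydrase, and Ccdc3, a secreted protein, had the same order, with 1.25 ± 0.368 CPM in MΔGΔT, 12.1 ± 1.19 CPM in MGT and 0.374 ± 0.280 CPM in MEF for Car14 (-3.25 ± 0.18) and 4.10 ± 1.33, 45.3 ± 4.74 and 6.91 ± 1.43 CPM for Ccdc3 (-3.47 ± 0.14). Fndc1, a fibronectin type III domain protein, averaged 31.8 ± 4.12 CPM in MΔGΔT, 368 ± 21.8 CPM in MGT and 160.4 ± 16.6 CPM in MEF (-3.53 ± 0.088), and Adamts15, a matrix protease, 6.33 ± 1.05, 72.1 ± 4.38 and 55.8 ± 2.93 CPM (-3.51 ± 0.078). The comparisons of MGT and of MΔGΔT with MEF share the MEF libraries, and each shares libraries with the comparison of the transduced groups, so these orders are given as levels side by side.

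Promoter windows were also described by call. Of the 13328 tested features, 10175 (76.3%) matched a RefSeq promoter by symbol, and 497 of these were called higher by at least 2-fold, 431 called lower by at least 2-fold and 4273 not called. Motifs were searched on both strands in the 250 bases before and 50 after the start: the MEF2 consensus and the CArG box by their 10-letter definitions, and the letters GATAA of GATA factors, GGTGTG of T-box factors, GGAATG of TEAD factors, CCAAT of the CCAAT box, TTTGAA of the cell cycle genes homology region and GGCGGGAA of E2F factors. The MEF2 consensus stood in 7.04% of promoters of genes called higher by at least 2-fold, 2.32% of those called lower, 1.33% of those not called and 1.7% of all tested. The CArG box stood in 3.42%, 1.16%, 0.913% and 1.29%, and GGAATG in 19.3%, 12.8%, 11.2% and 11.97%, in the same order of sets. GATAA and GGTGTG differed less between sets, at 16.7%, 17.4%, 15.4% and 15.5% for GATAA and 19.5%, 17.4%, 17.5% and 17.1% for GGTGTG. The promoters of all 27025 RefSeq symbols, tested or not, give another background. Of these, 3.26% held the MEF2 consensus, 1.57% the CArG box, 14.6% GGAATG, 25.8% GATAA and 18.96% GGTGTG. By list, the MEF2 consensus stood in 3 of 13 thick filament, 2 of 17 thin filament and 5 of 29 Z-disc and costamere promoters, and the CArG box in 5 of 30 smooth muscle and SRF promoters. Of 45 promoters of the mitosis list, all called lower, 3 (6.67%) held the MEF2 consensus and 2 (4.44%) the CArG box. Of 38 DNA replication promoters, 0 and 1 did. TTTGAA, the letters seen in the Mki67 promoter, stood in 22.04% of promoters of genes called lower by at least 2-fold and 11.3% of those called higher. The E2F letters GGCGGGAA went the other way, with 2.55% of those called lower and 3.62% of those called higher. They stood in 4.24% of those not called and 4.15% of all tested. The MEF2 consensus and the CArG box are both A/T-rich inside, and base composition was not matched between the sets.

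**Figure D5:**
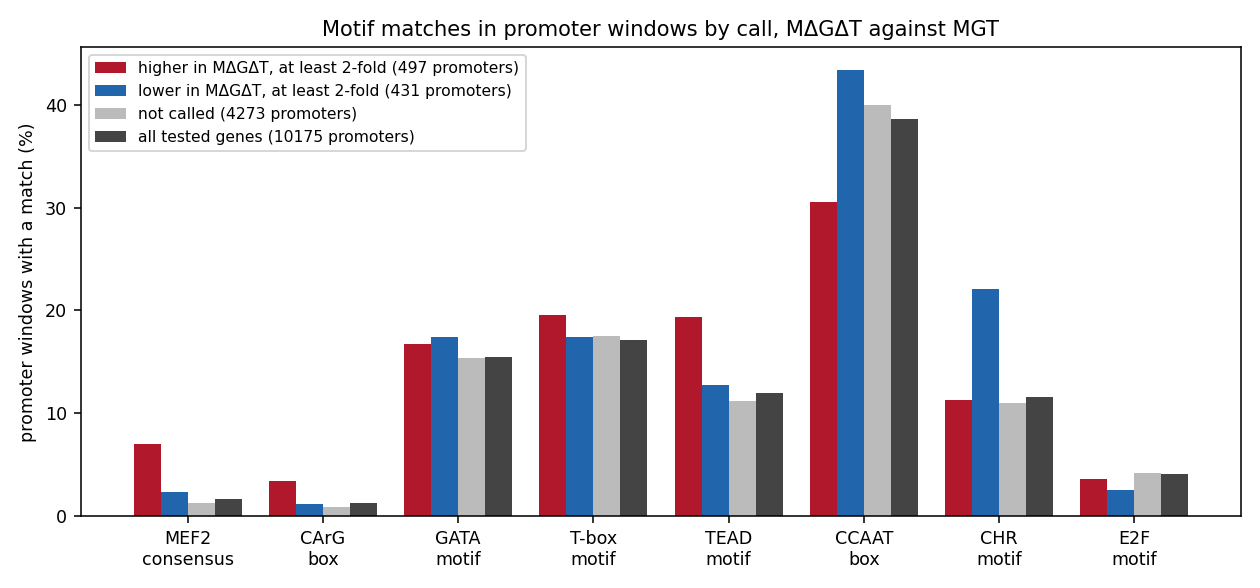
Percent of promoter windows with at least 1 match (vertical axis) for 8 motifs, by call in MΔGΔT against MGT: 497 promoters of genes called higher by at least 2-fold (red), 431 called lower by at least 2-fold (blue), 4273 not called (light grey) and all 10175 tested (dark grey). The red bar is tallest for the MEF2 consensus (7.04%), the CArG box (3.42%), the TEAD motif (19.3%) and, by less, the T-box motif (19.5%). The blue bar is tallest for the CCAAT box (43.4%), the CHR motif, the cell cycle genes homology region (22.04%), and, by less, the GATA motif (17.4%). For the E2F motif the light grey bar is tallest (4.24%).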

How the data were processed

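RNA was measured in 15 libraries of mouse embryonic fibroblasts, and the 5 MΔGΔT and 5 MGT libraries were compared. The authors deposited 4 values per feature and library. These were, per the file headers, raw counts, normalized values (count times 1 constant per library, a signal never below 0), log2-transformed normalized values (log2 of the normalized value plus 1, by comparison of the columns) and RPKM. The raw counts were the deposited counts, and they alone were tested. The deposited signal and log2 values served only to check what the columns hold. The deposited RPKM served to set genes side by side over its unstated lengths and to derive an alternative scaling. For genes with at least 100 counts in every library, the ratio of count to RPKM was set against that in MEF replicate 1. It lay within 1.2% of its median in 81.0% or more of these genes per library, so RPKM and counts did not match for every gene. Build mm10 was named by the submitters' processing notes, with mapper, counter and use of strand not given in the sources used here. Annotation by symbol came from GENCODE M21, in which 13765 of 14091 features (97.7%) were found, and 21 symbols had been turned into dates (0.258% of counts).

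Counts were scaled by TMM factors, filtered by filterByExpr over the 3 groups and fitted over all 15 libraries by group with edgeR 4.0.16 in R 4.3.3 (robust quasi-likelihood F-test, Benjamini-Hochberg adjustment over 13328 features, 12 residual degrees of freedom, biological coefficient of variation 4.86%). Genes were called at an adjusted p under 0.05, with no condition on size. Totals of 9285841 to 11128472 counts in the compared libraries set the precision, and CPM below about 1 rest on 10 or fewer counts. Between replicates, counts differed by more than sampling noise (chi-square per degree of freedom 1.61 to 2.57 in MΔGΔT and 2.04 to 2.88 in MGT), so no library was counted as the same library sequenced again. This measure cannot tell separate cultures from separate libraries of a single culture.

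Genes named were the 3 factors, a panel of muscle, fibroblast, cell cycle and immune genes, the 15 largest rises and 15 largest falls without overlap of the libraries at a mean of at least 2 CPM in the higher group (predicted genes and dates left out), and up to 3 rises and 3 falls of each list at that level. Members and lists were chosen with earlier results of these data known. Alternatives were 4 other scalings, DESeq2 1.42.0, limma 3.58.1 voom, no filter or a stricter filter, the 10 libraries alone, a replicate block, a fit without the robust option and each library left out in turn. Nkx2-5, Pln and Ckm are not analysed here. A few genes of the panel and lists are not reported here.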

Additional observations from a re-analysis of the deposited data

Results flagged for a closer look

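In the following, 1 library of a group of 5 stood apart from the other 4 (gap over range above Dixon's 95% critical value). Of 484 group values examined, 26 did so, and chance alone flags about 1 in 20. Within MGT, replicate 1 was highest for Myl7 (145.2 CPM), Klf4 (152.6 CPM), Pcp4l1 (5.846 CPM) and Fabp4 (4.83 CPM) and lowest for Cycs (4.66 CPM) and Nppb (0 CPM, where each other MGT library held 1 count). Replicate 2 of MGT was lowest for Ryr2 (116.3 CPM) and highest for Wnt2 (6.363 CPM) and for the share of ribosomal protein genes (1.725%). Replicate 3 of MGT was highest for Tbx5 (136.6 CPM), and replicate 4 lowest for Cdkn2b (46.67 CPM). Replicate 5 of MGT was highest for Foxa2 (0.3058 CPM), Tead4 (7.033 CPM) and Xaf1 (5.912 CPM) and lowest for Pth1r (20.69 CPM).

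Within MΔGΔT, replicate 1 was highest for Tnxb (5.662 CPM) and Klf2 (22.87 CPM), and replicate 2 for Ifi27 (55.86 CPM). Replicate 3 of MΔGΔT was highest for Flt1 (519 CPM) and lowest for Cdc25b (7.003 CPM), and replicate 4 lowest for Isg15 (1.819 CPM). Replicate 5 of MΔGΔT was highest for Hoxc13 (3.268 CPM) and Lipe (4.901 CPM) and lowest for Fgfr3 (36.49 CPM), Tead2 (56.53 CPM) and Atf6 (234.4 CPM). No library was flagged in more than 6 of these values.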

How the results depend on the processing

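Scaling mattered most. With library totals 2436 features were called higher and 6199 lower, with RPKM-implied totals 1871 and 7289, of them 1028 lower by at least 2-fold; 6152 and 5796 of the 7762 calls were shared. With RPKM-implied totals the numbers higher were 1 for the reprogramming factors, 14 for energy metabolism, 0 for oxidative phosphorylation, 5 for mitochondrially encoded genes, 4 for Hox genes, 11 for cell cycle inhibitors, 13 for TGF-beta, 9 for YAP-TEAD and 4 for the unfolded protein list, and the numbers lower 27 for oxidative phosphorylation, 17 for energy metabolism, 15 for cardiac transcription factors, 17 for immediate early genes, 21 for the unfolded protein list, 11 for YAP-TEAD, 6 for striated muscle assembly, 5 for the Z-disc, 32 for cofactors and 9 for macrophage markers. With library totals they were 0 higher for oxidative phosphorylation, 5 for Hox genes and 10 for the unfolded protein list, and 19 lower for oxidative phosphorylation, 14 for energy metabolism, 15 for cardiac transcription factors, 15 for the unfolded protein list, 29 for cofactors and 6 for macrophage markers. Upper-quartile factors called 3402 features higher and 4474 lower and gave 4 oxidative phosphorylation genes higher and 11 lower, and the fit without the robust option 5 macrophage markers lower. The fold change reversed for Mef2c (-0.051 with library totals, -0.13 with RPKM-implied totals), Isg15 (-0.14, -0.22 and, with upper-quartile factors, -0.028), and, with RPKM-implied totals, Ndufa1 (-0.018) and B2m (-0.021). These counts follow the shift of all features under each scaling.

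With single libraries left out, 3893 to 3993 features were called higher and 3456 to 3567 lower, 684 to 725 and 625 to 683 by at least 2-fold. Skeletal markers lower numbered 1 to 2, oxidative phosphorylation genes lower 3 to 6, unfolded protein genes lower 3 to 7, macrophage markers higher 1 to 2 and epithelial markers lower 1 to 3. Ptprc ranged from -0.19 to 0.040 and Isg15 from -0.035 to 0.15. The alternatives other than these and the 3 scalings above gave 3820 to 4126 higher and 3596 to 3970 lower. Of 237 named genes, 217 kept direction and call in all 21 alternatives. Whether equal replicate numbers mark paired libraries was not settled. Correlations between same-numbered MΔGΔT and MGT libraries were -0.023 to 0.067. The libraries of replicate 1 were each other's best match, as were those of replicate 2, while those of replicates 3, 4 and 5 were not. A replicate block called 4005 higher and 3677 lower, sharing 7630 of the 7762 calls. Genes with few counts, such as Gja5, Myog and Tcf21, could not be tested at this depth.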
